A study of Mus musculus with 45 samples.

Results

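The alveolar macrophages (AM) of SP-A knockout (KO) female mice were compared after exposure to ozone (O3) or to filtered air (FA). The KO females were taken by the genotype and sex in the sample titles, and they were 8 of the 45 mice of the study, 4 after FA (FA replicates 1 to 4) and 4 after O3 (O3 replicates 1 to 4). Surfactant protein A (SP-A) is a collagen-like protein of the alveolar lining fluid that binds microbes and regulates AM. The study asked how the AM miRNome, the set of miRNAs of a cell, responds to O3 in humanized mice that carry human SP-A2 or both SP-A1 and SP-A2 (co-ex), with KO mice, which lack SP-A, as the reference, in males and females. All 8 KO females lacked SP-A, were of the C57BL/6 strain and 12 weeks old, and were exposed for 3 h to FA or to O3 at 2 ppm. The AM were isolated by bronchoalveolar lavage after 18 h of recovery, small RNA was sequenced, and the estrous cycle of the females had been synchronized. No KO mouse carried a human SP-A gene, so neither exposure group has mouse or human SP-A. All 287 miRNAs listed for KO females were analysed.

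A miRNA guides the Argonaute protein to messenger RNAs that pair with its seed, the bases 2 to 8 from its 5′ end, and the paired messenger RNA is then translated less or degraded. miRNAs with the same seed can therefore share targets. Each hairpin precursor can give a 5p and a 3p strand, which are usually retained in unequal amounts. Several miRNAs are characteristic of a lineage, such as miR-142 and miR-223 of blood cells, miR-144, miR-451a and miR-486 of red blood cells, miR-143 and miR-145 of smooth muscle and other mesenchymal cells, and the miR-200 and miR-34b/c families of epithelial cells.

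The mature sequences below are of the miRNAs that the comparisons turned on and of those that share a seed with them. They are given 5′ to 3′ with the seed in capitals, from RefSeq (GRCm38.p6), in which 247 of the 287 miRNAs were found by name. The first 2 are the strands of the miR-144 and miR-451a hairpins, which lie beside each other on chromosome 11 (chr11:78073010-78073032 and chr11:78073186-78073207, plus strand, in no other annotated gene).
miR-144-5p: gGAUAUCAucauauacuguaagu
miR-451a: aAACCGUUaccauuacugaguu

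The next 3 share a seed but had log2 changes of opposite sign. miR-92b-3p lies outside other genes (chr3:89227126-89227147, minus strand). miR-92a-3p has a copy in an exon of the miR-17-92 host gene Mir17hg (chr14:115044476-115044496, plus strand) and another on the X chromosome (chrX:52741854-52741874, minus strand). miR-25-3p lies in Mcm7, within an annotated exon (chr5:138165332-138165353, minus strand). With positions counted from the 5′ end, miR-92b-3p and miR-92a-3p differ by C10U and C21G over the 21 positions they share.
miR-92b-3p: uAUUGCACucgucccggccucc
miR-92a-3p: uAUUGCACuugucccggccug
miR-25-3p: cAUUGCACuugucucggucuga

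The following are of the epithelial and mesenchymal lists of miRNAs. miR-34b-3p and miR-34c-3p are within a short distance of each other on the minus strand of chromosome 9 (chr9:51103574-51103595 and chr9:51103044-51103065), opposite to an intron of Btg4, and have the same seed. miR-99a-5p (chr16:77598940-77598961, plus strand, intron of Mir99ahg) and miR-100-5p (chr9:41531437-41531458, plus strand) differ by U16A only.
miR-34b-3p: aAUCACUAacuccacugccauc
miR-34c-3p: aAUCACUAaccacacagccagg
miR-99a-5p: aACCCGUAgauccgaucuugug
miR-100-5p: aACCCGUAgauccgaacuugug
miR-10a-5p: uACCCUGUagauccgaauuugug

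miR-2137 and miR-27b-3p were among the miRNAs whose O3 and FA mice did not overlap. miR-2137 lies in an intron of Zfp185 (chrX:72992113-72992133, plus strand) and miR-27b-3p in an untranslated exon of 2010111I01Rik (chr13:63300760-63300780, plus strand).
miR-2137: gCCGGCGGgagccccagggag
miR-27b-3p: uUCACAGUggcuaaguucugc

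let-7a-5p is shown as the miRNA with the highest mean share of a mouse, beside miR-1961, which had the lowest p for a difference from KO males and has the let-7 seed. Of the 17 positions of miR-1961, 14 are the same in let-7a-5p.
let-7a-5p: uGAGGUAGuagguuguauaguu
miR-1961: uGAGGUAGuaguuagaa

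The last 4 have the seed of miR-17, and all were lower after O3. miR-17-5p and miR-20a-5p are in Mir17hg on chromosome 14, and miR-93-5p and miR-106b-5p in Mcm7 on chromosome 5.
miR-17-5p: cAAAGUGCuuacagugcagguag
miR-20a-5p: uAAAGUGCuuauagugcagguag
miR-93-5p: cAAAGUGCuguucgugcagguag
miR-106b-5p: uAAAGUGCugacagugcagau

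Values are normalized values as deposited by the authors, a signal per miRNA divided by a factor of each mouse, and they could not be established to be whole reads. Every value was a whole multiple of a step of its mouse, and if 1 step is 1 read, the listed miRNAs held 545817 to 994319 reads in FA mice and 772820 to 1032922 in O3 mice. FA replicates 3 and 4 stood apart from the other mice. They had 91 and 101 of the 287 miRNAs at 0, whereas FA replicates 1 and 2 had 27 and 22 and the O3 mice 25 to 41. Of the 48 miRNAs at 0 in both FA replicates 3 and 4, 18 were above 0 in all 4 O3 mice. Only miRNAs above 0 in at least 4 of the 8 mice are listed, so each of the 48 was above 0 in some O3 mice by construction. In FA replicate 3, miR-486b-5p alone took 36.9% of the summed value. O3 replicate 1 was the highest of the 8 mice for 71 miRNAs (24.7%), the most of any mouse. The median of each list of miRNAs described here is given with and without FA replicates 3 and 4, an alternative chosen after seeing the data, as are many of the named miRNAs.

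After O3, most miRNAs of KO females were higher than after FA, but no miRNA passed the test. Of 287 miRNAs, 184 were higher (64.1%) and 103 lower (35.9%), with a median log2 change, O3 minus FA on log2(normalized value + 1), of 0.45. limma called 0 of 287 miRNAs at a false discovery rate (FDR) of 0.1 (0%), and the lowest adjusted p was 0.335. At an unadjusted p below 0.05 there were 22 (7.67%), of which 19 were higher (6.62%) and 3 lower (1.05%). The O3 mice lay wholly above the FA mice for 9 miRNAs (3.14%) and wholly below for 3 (1.05%). Of the 19 higher miRNAs, 7 were at 0 in at least 2 FA mice. A listed miRNA is above 0 in at least 4 mice, so these 7 were listed only through O3 mice. The shift of the whole miRNome was 0.49 (two-sided exact permutation test, p = 0.143, where 4 against 4 mice allow 0.029 at the lowest). Without FA replicates 3 and 4 the shift was 0.036 (exact permutation p = 0.667) and the median log2 change was 0.051, so the lean towards higher values was not seen in the other 6 mice. The plot of all miRNAs shows the largest changes, in either direction, among miRNAs of low value.

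**Figure D1:**
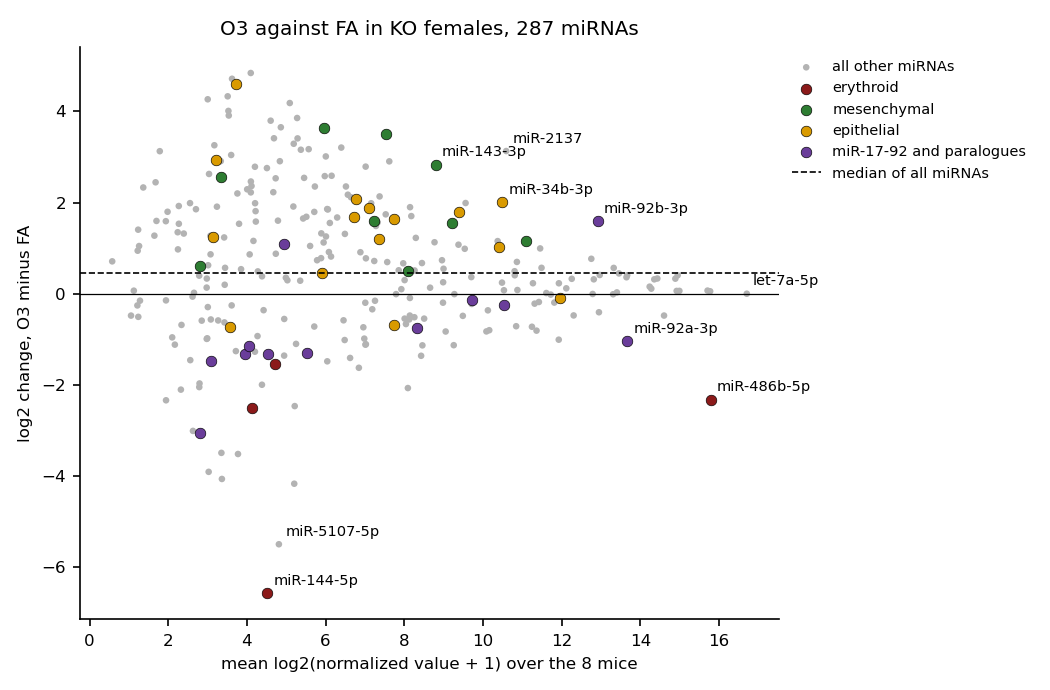
Each point is 1 of the 287 miRNAs of KO females; the x axis is the mean log2(normalized value + 1) over 8 mice and the y axis the log2 change, O3 minus FA. The dashed line is the median of 0.45; the 4 erythroid miRNAs (dark red) lie below 0, with miR-144-5p lowest at -6.57, and the 9 mesenchymal miRNAs (green) lie above 0.

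miRNAs of red blood cells had lower values after O3, although none passed the FDR. All 4 listed members of the erythroid list, chosen with earlier results known like every list here, had negative log2 changes, with a median of -2.42 against 0.45 for all miRNAs. The median was -1.55 without FA replicate 3 and -1.15 without FA replicates 3 and 4. Of the 4, 2 had an unadjusted p below 0.05 and 1 did not overlap between the exposures, where 1.05% of all miRNAs were lower at that p and 1.05% were lower without overlap. miR-144-5p, a strand of the erythroid miR-144 hairpin, was at 120, 340, 246 and 242 in the FA mice and at 29.4, 0, 0 and 0 in the O3 mice. Every FA mouse was thus above every O3 mouse, the nearest by 4.10-fold. With most O3 mice at 0, miR-144-5p was listed only through the FA mice, so its direction was in part set by the listing. Its log2 change was -6.57 ± 1.94 (SE, limma adjusted p = 0.335), a size that depends on the pseudocount because 3 O3 mice were at 0, and which was -9.07 with a pseudocount of 0.1 and -4.05 with 10.

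miR-486b-5p, the mature miRNA of erythroid cells with the highest mean of the table, was at 52914, 85398, 526677 and 109035 after FA and at 7518, 22198, 14972 and 163360 after O3. The groups overlapped, since O3 replicate 4 was above 3 of the FA mice, while the other 3 O3 mice were below every FA mouse. Its log2 change was -2.33 ± 0.80 (SE, limma adjusted p = 0.502). Without O3 replicate 4 it was -3.23 and passed (limma adjusted p = 0.0502). Without FA replicates 3 and 4 it was -1.41.

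miR-451a, which is made from the neighbouring hairpin of miR-144 and is the typical miRNA of red blood cells, was at only 11.1, 66.9, 266 and 18.2 after FA and 6.68, 25.5, 9.84 and 24.7 after O3. These ranges overlapped (log2 change -1.55, limma adjusted p = 0.793), and the change was -0.70 without FA replicate 3 and -0.89 without FA replicates 3 and 4. miR-486b-3p, the other strand of miR-486b, was at 0, 48.2, 376 and 158 after FA and 1.34, 16.3, 0 and 68.0 after O3, with a log2 change of -2.51 that became 0.051 without FA replicates 3 and 4. The summed share of the 4 miRNAs was 7.23, 10.9, 37.0 and 14.3% of the mouse in FA mice and 0.715, 3.04, 2.17 and 16.2% in O3 mice, nearly all of it miR-486b-5p. Fewer cells of a type and less RNA per cell cannot be told apart in such samples.

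**Figure D2:**
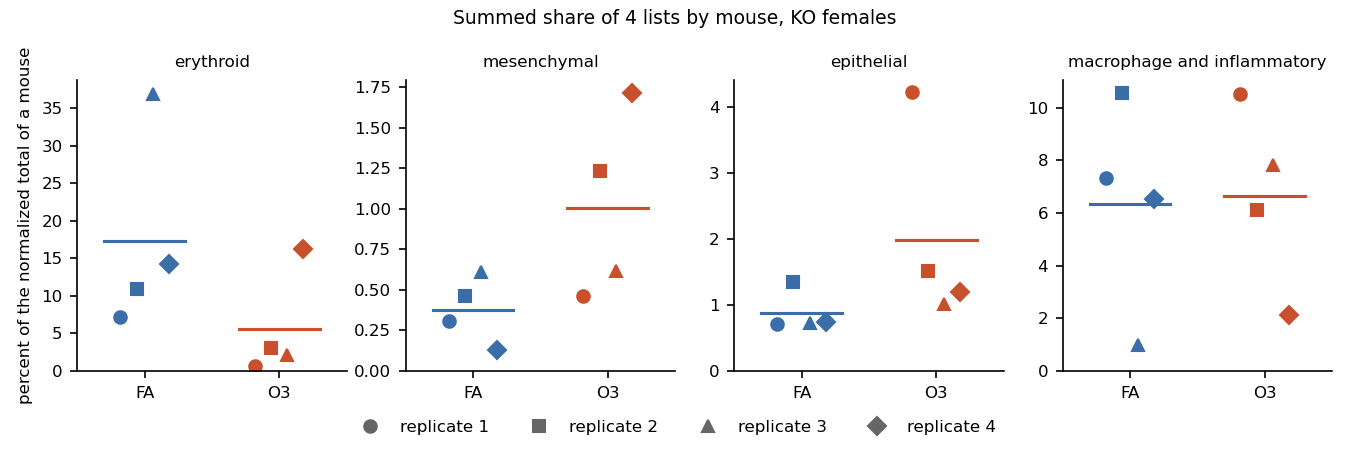
Share of the summed normalized value of a mouse held by 4 lists of miRNAs, in percent, for FA (blue) and O3 (orange) mice; symbols are replicates 1 to 4 and bars are group means. The erythroid share was highest in FA replicate 3 (37.0%), the epithelial share in O3 replicate 1 (4.23%) and the macrophage share lowest in FA replicate 3 (0.986%).

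The mesenchymal list of miRNAs was the other way. Of this list, miR-125b, miR-10a, miR-99a and miR-100 are also found in blood-forming cells, so it is not specific to mesenchymal cells. All 9 listed members had positive log2 changes, with a median of 1.60, where 64.1% of all miRNAs were higher. Of the 9, 4 had an unadjusted p below 0.05 and 2 did not overlap, against 6.62% and 3.14% of all miRNAs on the higher side. Apart from miR-143-3p, those below 0.05 were miR-99a-5p, miR-10a-5p and miR-100-5p, which are also found in blood-forming cells. The median of the list was 1.54 without FA replicates 3 and 4. miR-143-3p, which is made in smooth muscle and fibroblasts, was at 126, 473, 57.6 and 217 after FA and at 1362, 1093, 693 and 1895 after O3. All O3 mice were above all FA mice, and the means were 218 ± 182 and 1261 ± 504 (SD, n = 4 each), a 5.77-fold difference. Its log2 change of 2.83 ± 0.74 (SE) had the lowest p of the table but not an adjusted p below the FDR (limma adjusted p = 0.335).

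miR-99a-5p was at 582, 508, 250 and 189 after FA and 674, 1257, 841 and 1424 after O3. These ranges did not overlap either, but the highest FA and lowest O3 mouse were only 1.16-fold apart (log2 change 1.54 ± 0.62, limma adjusted p = 0.628), and the log2 change was 0.88 without FA replicates 3 and 4. miR-100-5p, its near copy with a base of difference, was at 48.7, 14.4, 125 and 0 after FA and 200, 300, 87.7 and 423 after O3. Its log2 change of 3.63 was 2.25 without FA replicate 4, the mouse at 0, and 2.98 without FA replicates 3 and 4. miR-10a-5p, a miRNA of the Hox clusters, was at 106, 99.9, 867 and 0 after FA and at 716, 511, 622 and 674 after O3. The O3 mice were close together for miR-10a-5p, and the FA mice were spread on either side of them. Its log2 change was 1.57 without FA replicate 4 and 4.82 without FA replicate 3. Reads of miR-99a-5p and miR-100-5p can be confused, and how the authors assigned such reads is not given in the sources used here. The 4 members named here apart, the list held miR-125b-1-3p, miR-125b-5p, miR-145a-5p, miR-199b-3p and miR-214-3p, with limma adjusted p of 0.73 to 0.93. The summed share of the 9 was 0.128 to 0.609% in FA mice and 0.463 to 1.71% in O3 mice, so the shares overlapped.

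Of the 15 listed epithelial miRNAs, 12 were higher and 3 lower, where 64.1% of all miRNAs were higher, and O3 replicate 1 was the highest mouse for each of the 4 with the lowest p. The median of 1.63 was 0.76 without O3 replicate 1, 0.58 without FA replicate 4 and 0.34 without FA replicates 3 and 4. At an unadjusted p below 0.05 there were 3, all higher (6.62% of all miRNAs), and none was free of overlap. miR-34b-3p, a miRNA of ciliated airway cells, was at 398, 1311, 584 and 863 after FA and at 25502, 949, 2032 and 1405 after O3. O3 replicate 1 was far above all others, and O3 replicate 2 was within the FA range. Its log2 change of 2.01 (limma adjusted p = 0.628) was 0.96 without O3 replicate 1. miR-34c-3p, with the same seed, had the same mouse at the top, at 0, 49.1, 0 and 0 after FA and 941, 29.1, 45.6 and 12.4 after O3 (log2 change 4.61). It was among those with an unadjusted p below 0.05. With most FA mice at 0 it was listed only through O3 mice, so its direction was in part set by the listing.

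miR-375-3p, a miRNA of secretory and endocrine epithelium, was at 361, 1007, 179 and 245 after FA and 4235, 914, 653 and 945 after O3 (log2 change 1.80, limma adjusted p = 0.628, or 1.04 without FA replicates 3 and 4). miR-200b-3p, a repressor of the mesenchymal factors ZEB1 and ZEB2, was at 855, 1770, 1435 and 364 after FA and 3425, 1988, 828 and 2476 after O3 (log2 change 1.03, or 0.58 without FA replicate 4 and 0.65 without FA replicates 3 and 4). In both, O3 replicate 1 was the highest of the 8 mice. The epithelial share of a mouse was 0.713 to 1.34% after FA and 4.23, 1.51, 1.01 and 1.20% after O3.

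**Figure D3:**
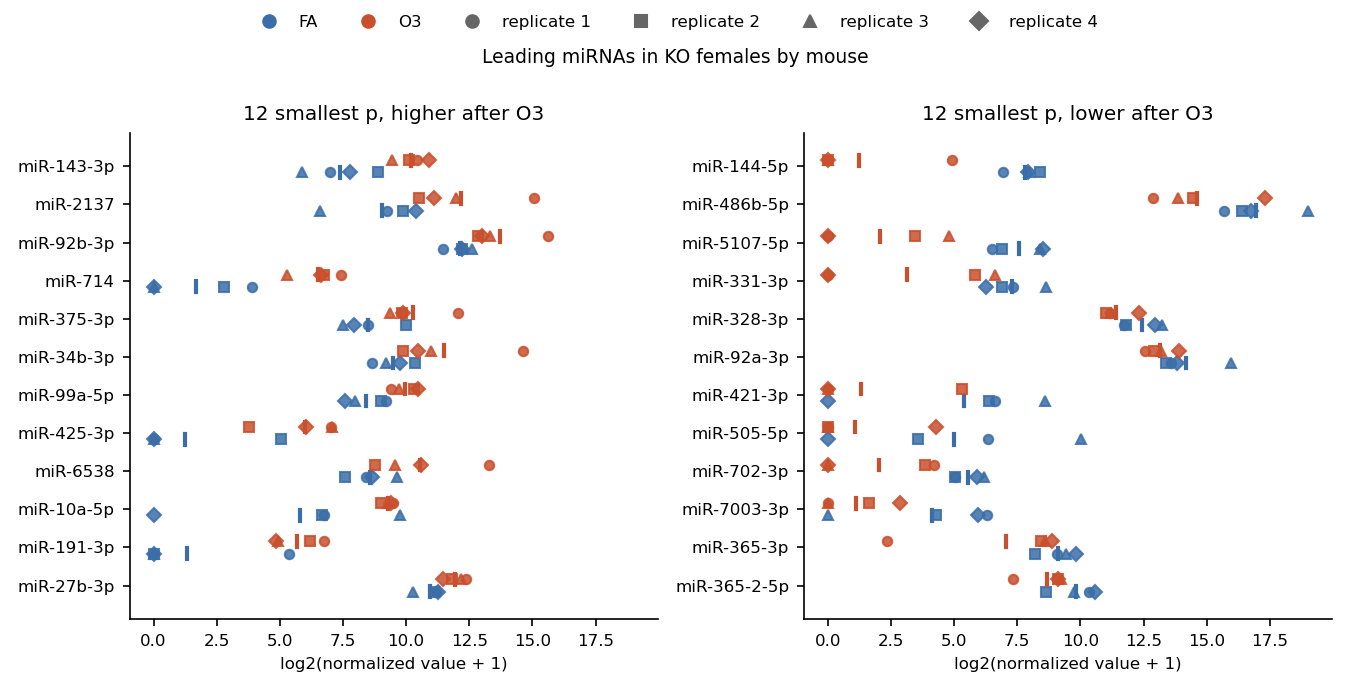
Normalized values, as log2(value + 1), of the 12 miRNAs with the lowest p among those higher (left) and lower (right) after O3 in KO females; FA mice are blue, O3 mice orange, symbols are replicates and bars are group means. miR-143-3p and miR-92b-3p on the left and miR-144-5p and miR-5107-5p on the right have no overlap, and O3 replicate 1 (circle) is the highest mouse for miR-2137, miR-92b-3p and miR-34b-3p.

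Among the remaining miRNAs with the lowest p on the higher side, miR-2137 was at 610, 944, 95.4 and 1323 after FA and at 33791, 1459, 4009 and 2201 after O3. The O3 mice were above the FA mice, O3 replicate 1 by a wide margin and O3 replicate 2 by 1.10-fold over the highest FA mouse. The log2 change was 3.13 ± 0.90 (SE, limma adjusted p = 0.335), and 2.17 to 3.68 with a mouse left out. miR-714 was at 14.0, 5.92, 0 and 0 after FA and 170, 106, 38.5 and 97.9 after O3. It was without overlap, at low values (log2 change 4.85, limma adjusted p = 0.628, or 3.17 without FA replicates 3 and 4). miR-6538 was at 340, 188, 801 and 395 after FA and 9974, 433, 754 and 1559 after O3, again with O3 replicate 1 at the top (log2 change 1.99, or 1.08 without that mouse).

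miR-92b-3p and miR-92a-3p share a seed and lay in opposite directions. miR-92b-3p was at 2794, 4759, 6214 and 4703 after FA and at 50711, 7418, 10300 and 8295 after O3. All O3 mice were above all FA mice, the nearest by 1.19-fold (log2 change 1.59 ± 0.55, limma adjusted p = 0.502), and the log2 change was 0.95 without O3 replicate 1. miR-92a-3p was at 12406, 10612, 63178 and 14466 after FA and at 5945, 7743, 9451 and 15148 after O3. These groups overlapped through O3 replicate 4, and the log2 change of -1.05 was -0.46 without FA replicate 3 and -0.35 without FA replicates 3 and 4. miR-25-3p, the remaining member of this seed, had a log2 change of -0.13. How reads that match both miR-92a-3p and miR-92b-3p were assigned is not given in the sources used here.

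The list of the miR-17-92 cluster and its paralogues, which drive proliferation and restrain apoptosis in blood cells, leaned lower. It includes miR-92b-3p, miR-92a-3p and miR-25-3p. Of 12 listed, 2 were higher and 10 lower (35.9% of all miRNAs were lower), with a median of -1.10. The median was -0.85 to -0.38 with a mouse left out, nearest 0 without FA replicate 3, and -0.60 without FA replicates 3 and 4. At an unadjusted p below 0.05 there was 1, miR-92b-3p, which was higher. miR-93-3p was at 0, 18.6, 35.8 and 237 after FA and 0, 34.8, 0 and 0 after O3 (log2 change -3.06, limma adjusted p = 0.727, or -1.87 without FA replicate 4 and -0.86 without FA replicates 3 and 4). miR-106b-3p was at 427, 604, 1061 and 108 after FA and 214, 178, 184 and 510 after O3 (log2 change -0.76, limma adjusted p = 0.765, or -0.31 without FA replicate 3 and -1.40 without FA replicate 4). In both, the groups overlapped. The 4 miRNAs with the seed of miR-17, singled out after their values were seen, had log2 changes of -1.48 to -0.25, with a median of -1.33. The median was -0.18 without O3 replicate 4, -0.40 without FA replicate 3, where 1 of the 4 was higher, and between -1.98 and -0.90 without any other mouse. miR-15b-5p, miR-16-5p, miR-15a-5p and miR-322-5p, which share the seed AGCAGCA and target cell cycle genes, were also all lower, with a median of -0.55, where 35.9% of all miRNAs were lower. This median ran from -1.38 to -0.28 with a mouse left out, and 2 of the 4 were higher without FA replicate 2 or without O3 replicate 2. The lists and seeds were of members that are transcribed together or share reads, so their members are not independent.

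The miRNAs of the label were listed, but not all were abundant. AM should hold the miRNAs of blood-derived and inflammatory cells, and miR-21a-5p and miR-146b-5p were at positions 10 and 11 by mean value, while miR-223-3p, miR-142a-3p, miR-142a-5p, miR-146a-5p and miR-155-5p were all listed. miR-142a-3p was at position 128 and miR-142a-5p at 101. Both were at 0 in FA replicate 4, and miR-142a-3p also in O3 replicate 4. miR-223-3p, also the leading miRNA of neutrophils, had means of 1751 after FA and 2168 after O3. Those of the epithelial miR-200c-3p were higher, at 4320 and 4114. The endothelial miR-126 strands were not among the 287 miRNAs. Of the 12 listed macrophage and inflammatory miRNAs, 10 were higher and 2 lower after O3, with a median of 0.40 against 0.45 for all miRNAs, and none had an unadjusted p below 0.05. The median was 0.061 without FA replicate 3, 1.45 without O3 replicate 4 and -0.50 without FA replicates 3 and 4. miR-146a-5p, which dampens signalling of Toll-like receptors, was at 245, 461, 0 and 233 after FA and at 814, 297, 768 and 447 after O3. The log2 change of 2.91 (limma adjusted p = 0.682) rested on the 0 of FA replicate 3, without which it was 0.85.

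miR-155-5p, a promoter of inflammatory responses of macrophages, was at 273, 401, 0 and 353 after FA and 1328, 264, 911 and 44.3 after O3. Its log2 change of 2.14 (limma adjusted p = 0.727) was 0.034 without FA replicate 3. miR-223-5p was at 12.6, 178, 0 and 0 after FA and 195, 95.1, 291 and 0 after O3, and its log2 change of 2.79 was -0.024 without FA replicates 3 and 4. miR-132-3p was at 4.43, 0, 0 and 102 after FA and 29.4, 27.7, 30.4 and 3.09 after O3, and its log2 change of 1.91 ran from 1.15 without FA replicate 2 or 3 to 3.38 without FA replicate 4. None of these 4 separated the exposures. FA replicate 3 had the lowest share of this list, 0.986%, and the highest erythroid share, 37.0%, and O3 replicate 4 the next lowest, 2.12%, with 16.2% of erythroid miRNAs. The part of this makeup in the other results was not tested.

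The miR-23/27/24 clusters, which are abundant in macrophages, were higher in all 9 listed members (64.1% of all miRNAs were higher), with a median of 0.77 that was 0.11 without FA replicates 3 and 4. Of these, 2 did not overlap (3.14% of all miRNAs on the higher side), both from the miR-23b/27b cluster. miR-27b-3p, a repressor of the lipid regulator PPARG, was at 2331, 2180, 1250 and 2450 after FA and at 5331, 3584, 4576 and 2803 after O3, a 1.98-fold difference of the means (log2 change 0.99 ± 0.44, limma adjusted p = 0.628). miR-23b-3p was at 6393, 5839, 4369 and 4818 after FA and at 7402, 9394, 9395 and 10072 after O3 (log2 change 0.77 ± 0.39, limma adjusted p = 0.679). The differences were small, but each O3 mouse was above each FA mouse. miR-24-2-5p and miR-23b-5p overlapped, with log2 changes of 1.13 and 2.54, which were 0.11 and 0.54 without FA replicates 3 and 4. For miR-23b-5p it was 1.15 without FA replicate 3, and for miR-24-2-5p 0.58 without FA replicate 4.

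Apart from miR-486b-5p, the most abundant miRNAs had small log2 changes, but the intervals of some were wide. The 10 with the highest mean values held 59.6% of a mouse on average (47.1 to 74.5%), and they were miR-486b-5p, let-7a-5p, miR-30d-5p, miR-125a-5p, let-7b-5p, let-7c-5p, let-7f-5p, let-7d-5p, miR-423-5p and miR-21a-5p. let-7a-5p, a repressor of RAS and MYC, was at 97432, 103170, 126579 and 102674 after FA and at 148515, 88431, 85539 and 116103 after O3. The means of 107464 ± 13005 and 109647 ± 29347 (SD, n = 4 each) differed by less than their spread. Its log2 change was between -0.84 and 0.84 (95% interval), so a change of 2-fold was outside the interval in either direction. Apart from miR-486b-5p, the log2 changes of the 10 were between -0.48 and 0.40. The 95% intervals were -1.23 to 1.36 for let-7b-5p, -0.92 to 1.58 for let-7c-5p and -0.63 to 1.43 for let-7f-5p. For these, a 2-fold increase was inside the interval.

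let-7b-5p and let-7c-5p were highest in the same mice, 1 of each exposure. let-7b-5p was highest in FA replicate 3 (99940) and O3 replicate 4 (86709), the mice with the highest erythroid shares, and between 12907 and 35736 in the other 6. let-7c-5p was at 80179 and 84596 in these mice and between 13558 and 37948 in the others. miR-21a-5p, which is induced in many inflamed tissues, had its lowest values in the same mice, 3081 and 5503, and was between 24285 and 50309 in the other 6. Of the 15 let-7 and miR-98 members, 11 were higher and 4 lower after O3 (median 0.33, 0.11 to 0.50 with a mouse left out and 0.22 without FA replicates 3 and 4), none with an unadjusted p below 0.05. The 4 with the lowest p were let-7b-3p, let-7i-5p, let-7j and let-7d-3p, with log2 changes of 3.17, 0.41, 0.94 and 0.36. That of let-7b-3p was 1.84 without FA replicate 4.

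On the lower side, miR-5107-5p was at 89.3, 117, 332 and 360 after FA and at 0, 9.93, 26.8 and 0 after O3. All FA mice were above all O3 mice, the nearest by 3.33-fold (log2 change -5.50 ± 1.92, limma adjusted p = 0.502). miR-702-3p was the other miRNA without overlap, at 31.7, 31.3, 71.6 and 58.9 after FA and 17.4, 13.5, 0 and 0 after O3 (log2 change -3.52, limma adjusted p = 0.689). miR-328-3p was at 3417, 3575, 9583 and 7937 after FA and 2294, 2061, 2364 and 5053 after O3, and only O3 replicate 4 was within the FA range (log2 change -1.01, limma adjusted p = 0.628, or -0.35 without FA replicates 3 and 4). The rest of the 12 with the lowest p on this side overlapped. miR-331-3p, miR-421-3p, miR-505-5p and miR-7003-3p were at 0 in 2 or 3 O3 mice (log2 changes -4.17 to -3.01). These, miR-5107-5p and miR-702-3p were listed only through FA mice, so their direction was in part set by the listing. miR-365-3p and miR-365-2-5p were lowest in O3 replicate 1, at 4.01 and 159, with log2 changes of -2.07 and -1.13, or -0.49 and -0.67 without that mouse.

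Of the other lists, the miRNAs numbered 1000 or higher, most of them of low value, were 69, of which 44 were higher and 25 lower (median 0.54, or 0.16 without FA replicates 3 and 4). The medians of the smaller lists depended on single mice. That of miR-29 (4 listed) was 0.69, with -0.047 without FA replicate 3, 1.27 without FA replicate 2 and -1.52 without FA replicates 3 and 4. That of miR-181 (5) was 1.53, with 0.30 without FA replicate 4, 2.49 without FA replicate 1 and 0.39 without FA replicates 3 and 4. The miR-30 list (8) had a median of 0.32, which was 0.18 to 0.59 with a mouse left out and 0.22 without FA replicates 3 and 4. In the list of miR-103 and miR-378 (5) it was 0.36, with -0.0044 without O3 replicate 1 and -0.15 without FA replicates 3 and 4.

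The sign of the other medians turned with the mice included. The miR-15, miR-16 and miR-322 list (6) had a median of -0.24, which was above 0 without FA replicate 2, O3 replicate 2 or O3 replicate 3 and ran from -0.78 to 0.36, with -0.41 without FA replicates 3 and 4. That of miR-130 and miR-148 (5) was -0.09, with 0.80 without FA replicate 3, 0.90 without O3 replicate 3, -0.84 at the lowest and -0.54 without FA replicates 3 and 4. The lymphoid list (4) was at 0.18, with -0.26 without FA replicate 3, -0.097 without O3 replicate 2, 0.98 at the highest and -0.20 without FA replicates 3 and 4. The stress-responsive list held only miR-34a-5p, with a log2 change of 0.91 that was -1.23 without FA replicate 3 and -1.74 without FA replicates 3 and 4. In none of these 9 lists did a member pass the FDR. Without overlap were 2 higher and 1 lower of the 69 numbered 1000 or higher and 1 higher of the 8 of miR-30. Of all miRNAs, 3.14% were higher and 1.05% lower without overlap. At an unadjusted p below 0.05 there were 5 higher and 1 lower of the 69, and 1 higher each in the miR-30 and miR-181 lists. Of all miRNAs, 6.62% were higher and 1.05% lower at that p. The plot of the lists shows that the medians of the erythroid list and of the miR-17-92 list were the lowest and those of the epithelial and mesenchymal lists the highest.

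**Figure D4:**
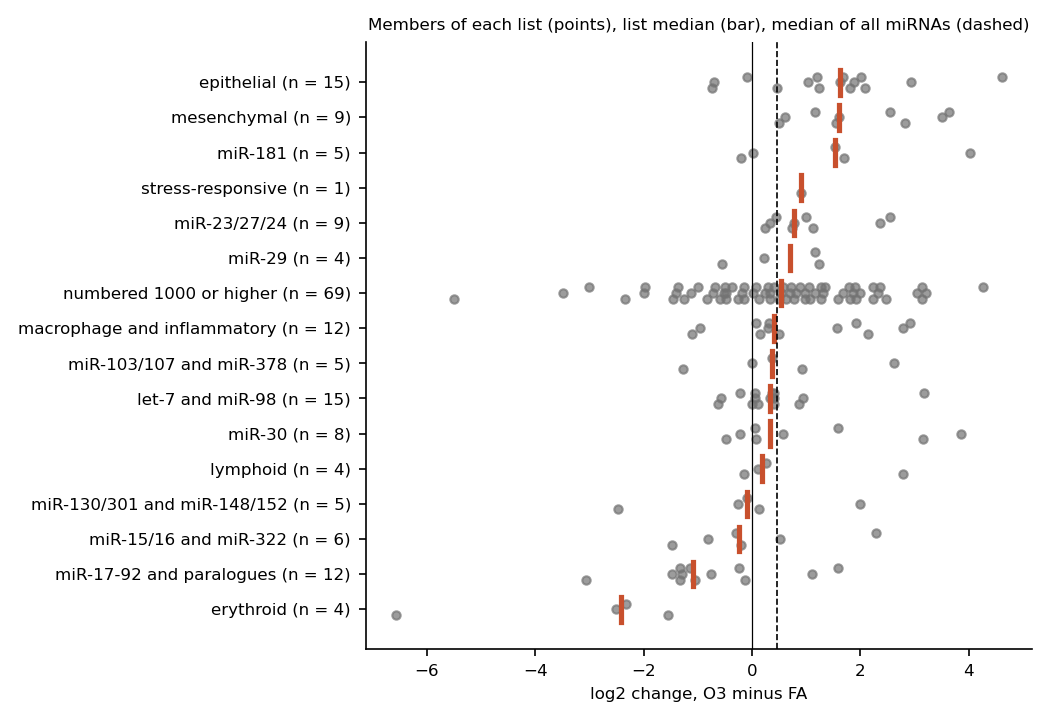
log2 change, O3 minus FA, of each member (points) of 16 lists of miRNAs in KO females, with the list median (orange bar), 0 (solid line) and the median of all 287 miRNAs, 0.45 (dashed line). The erythroid list has the lowest median, -2.42, and the epithelial list the highest, 1.63.

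The balance of the 5p and 3p strands was compared within each mouse, as log2(5p + 1) minus log2(3p + 1). The scaling of the mouse drops out only where both strands are well above 0, and where a strand is at 0 the balance follows the value of the other strand. Of the 60 hairpins with both strands listed, limma called 0 at the FDR of 0.1 (0%), and 5 had an unadjusted p below 0.05 (8.33%). The first 2 were miR-425 and miR-191, which lie together in an exon of a non-coding RNA on chromosome 9 (chr9:108568830-108568850 and chr9:108568367-108568388, plus strand, for the 3p strands).
miR-425-3p: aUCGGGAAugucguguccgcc
miR-191-3p: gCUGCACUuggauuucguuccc

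In both the 3p strand, the minor strand in these mice, was higher after O3. miR-425-3p was at 0, 32.2, 0 and 0 after FA and 131, 12.8, 134 and 63.9 after O3, while miR-425-5p was at 704, 630.5, 326 and 219 after FA and 477, 470.3, 547 and 1181 after O3. The difference in balance was -4.17 ± 1.35 (SE, limma adjusted p = 0.415). miR-191-3p was at 40.6, 0, 0 and 0 after FA and 105, 72.4, 29.5 and 27.8 after O3, against 7852 to 12859 and 6914 to 14972 for miR-191-5p, and its balance differed by -4.35 ± 1.52 (limma adjusted p = 0.415). The FA values at 0 set the size of both. Only miRNAs above 0 in at least 4 mice are listed, so both 3p strands were listed only through the O3 mice. Their direction was thus in part set by the listing. miR-34c had a difference of -4.16 and miR-664 and miR-324 of 4.67 and 4.85 (limma adjusted p of 0.415 to 0.511). miR-34c-3p was also listed only through the O3 mice, so the same limit holds for miR-34c. miR-191 passed the FDR when FA replicate 1 was left out (limma adjusted p = 0.0633) and miR-664 when FA replicate 4 was left out (limma adjusted p = 0.0927).

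The response of KO females was then compared with that of KO males, SP-A2 females and co-ex females, as the difference between the log2 changes within each table. The tables were normalized separately, so levels were not compared. No miRNA differed at the FDR of 0.1 from limma, with 0 of 270 (0%) against KO males, 0 of 281 (0%) against SP-A2 females and 0 of 253 (0%) against co-ex females. At an unadjusted p below 0.05 there were 27 (10%), 16 (5.69%) and 10 (3.95%). The median half-width of the 95% interval of a difference was 4.47, 3.84 and 4.55 on the log2 scale, so that differences smaller than that could mostly not be shown. Across miRNAs, which are not independent and share the library of each mouse, Spearman's rho of the log2 changes was 0.12 against KO males, 0.22 against the SP-A2 females and 0.29 against the co-ex females. The log2 change had the same sign in 51.9, 57.3 and 60.5% of the miRNAs.

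Against KO males, the lowest p was that of miR-1961, the miRNA with the let-7 seed. In KO females it was at 489, 223, 596 and 673 after FA and 6637, 182, 904 and 792 after O3 (log2 change 1.08), whereas in KO males the FA mice were at 17.6 to 216 and the O3 mice at 595 to 8668 (log2 change 5.52). The difference was -4.45 ± 1.41 (SE, limma adjusted p = 0.456). miR-5126 and miR-1957a also had negative differences, KO females minus KO males, of -2.41 and -2.12. Those of miR-511-3p and miR-425-3p were positive, at 6.40 and 6.70. Their log2 changes in KO females were 2.20 and 4.72, so both were higher after O3 in KO females and lower in KO males. All had a limma adjusted p of 0.456. In KO males the O3 mice had 16 to 155 of 328 miRNAs at 0, against 28 to 40 in the FA mice, so in males the mice with many zeros were on the O3 side, and in females on the FA side. The part of this in the differences was not tested.

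Several miRNAs with the lowest p in KO females were also higher in the other groups. miR-143-3p had log2 changes of 3.62 in KO males (limma adjusted p = 0.0135) and 5.63 in co-ex females (limma adjusted p = 0.0225), both past the FDR, and 2.51 in SP-A2 females. The difference of KO females from KO males was -0.79, with a 95% interval of -2.91 to 1.33. miR-2137 had log2 changes of 5.86, 2.59 and 2.41 in these groups and miR-92b-3p of 3.33, 1.86 and 1.89. Of the 24 miRNAs with the lowest p in KO females, the sign was the same in 17 of 22 listed in KO males, 17 of 24 in SP-A2 females and 16 of 20 in co-ex females. The mesenchymal list was higher in all 9 members in each of the 3 groups, with medians of 2.85, 2.42 and 4.24. Of all miRNAs also listed for KO females, 110 of 270 were higher in KO males, 162 of 281 in SP-A2 females and 148 of 253 in co-ex females.

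The erythroid list was mixed in direction in the other groups. In KO males 2 of 4 members were higher, with a median log2 change of -0.48, and miR-144-5p was at -1.66, miR-486b-3p at -1.11, miR-486b-5p at 0.16 and miR-451a at 1.09. In SP-A2 females 3 of 4 were higher (median 1.18), and in co-ex females 3 of 3 (median 1.63). Against SP-A2 females, miR-144-5p and miR-486b-5p had the lowest p, with log2 changes of -0.06 and 1.67 there and differences of -6.51 ± 2.25 and -4.00 ± 1.49 (SE, limma adjusted p = 0.775 for both). Without SP-A2 O3 replicate 2 that of miR-486b-5p passed (difference -5.24, limma adjusted p = 0.0867). Against co-ex females miR-486b-5p led again, with a log2 change of 1.63 there and a difference of -3.95 ± 1.34 (SE, limma adjusted p = 0.916). The level of miR-486b-5p varied widely within groups elsewhere too, from 2007 to 112668 in the FA mice of co-ex females. The next miRNAs were miR-184-3p, miR-212-3p and miR-140-3p against SP-A2 females (differences 6.41, -4.48 and -1.57) and miR-1964-3p, miR-664-5p, let-7c-5p and miR-8111 against co-ex females (5.48, 7.17, -1.93 and 5.98), none of which passed.

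**Figure D5:**
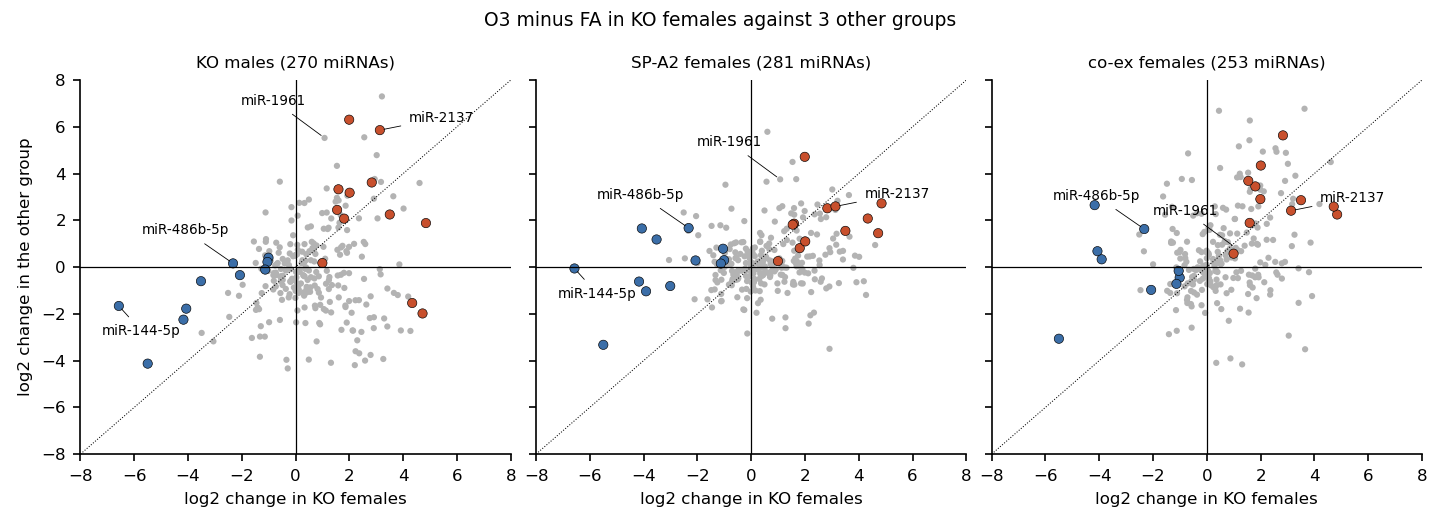
log2 change, O3 minus FA, of each miRNA in KO females (x axis) against KO males, SP-A2 females and co-ex females (y axes); orange and blue points are the 12 miRNAs with the lowest p on the higher and lower side in KO females, and the dotted line is equality. miR-2137 is above 0 on both axes in all 3 panels, whereas miR-486b-5p, at -2.33 in KO females, is at 0.16, 1.67 and 1.63 in the others.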

How the data were processed

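Small RNA of AM was sequenced (NEXTflex libraries, Illumina HiSeq 2500) in 8 KO females, 4 per exposure. The authors assigned the reads to mouse miRNAs and deposited, for each genotype and sex, a table of normalized values, that is a signal per miRNA divided by a factor of each mouse, together with their own p-values, q-values and ranks, which were not used. The processing notes name CASAVA and edgeR, and the methods edgeR and TCC, but which tool made the normalized values was not established here, and the aligner, miRNA annotation and genome build are not given in the sources used here. The table of KO females lists only miRNAs above 0 in at least 4 of the 8 mice. Of 6 tables, 4 were used.

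The values were checked to be whole multiples of a step of each mouse (within 0.001 steps), but only 17 to 48 values per mouse lay within 20 steps, under the 100 needed to take them as reads, so count models were not run. The read totals are of listed miRNAs and are not the depth of the library. The fit was limma 3.58.1 (R 4.3.3) with a trended prior on log2(normalized value + 1), with no filter and Benjamini-Hochberg adjustment over all 287 miRNAs at an FDR of 0.1, as planned from the study's methods. With the pseudocount of 1, changes of miRNAs of low value come out smaller. Differences in response were limma interactions of table and exposure over the miRNAs in both tables, and strand balance was fitted the same way. The scripts were tested on simulated data. Each replicate was a mouse.

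The text names the 12 miRNAs with the lowest p on each side whether or not they passed, the 10 highest by mean, up to 4 with the lowest p of the lists described, the 5 with the lowest p for each difference and for strand balance, and those said to be chosen after their values were seen. The members, lists and rules were chosen with earlier results of these data known. Mature sequences are from RefSeq (GRCm38.p6) and gene annotation at their positions is from GENCODE M21 of the same assembly.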

Additional observations from a re-analysis of the deposited data

Results flagged for a closer look

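Within groups of 4 mice, the gap between the most distant mouse and its nearest neighbour was divided by the range of the group on the log2 scale, and ratios above 0.829 are given here. Of 102 groups of the named miRNAs 15 passed. The rate of about 1 in 20 that chance gives holds for values without ties, whereas a group with 3 mice at 0 has a ratio of 1 by construction, and many of these miRNAs were named for their low p, so no comparison with that rate is made. O3 replicate 1 was apart for miR-92b-3p (0.829, highest), miR-144-5p (1, the only O3 mouse above 0), miR-365-3p (0.937, lowest) and miR-365-2-5p (0.929, lowest). O3 replicate 4 was apart for miR-328-3p (0.847, highest), miR-505-5p (1, the only O3 mouse above 0) and miR-132-3p (0.955, lowest). O3 replicate 2 was the only O3 mouse above 0 for miR-421-3p and miR-93-3p (ratio 1 for both). Among FA mice, FA replicate 3 was the lowest, at 0, for miR-146a-5p (0.889) and miR-155-5p (0.936), FA replicate 1 was the highest for miR-30d-5p (0.914) and the only one above 0 for miR-191-3p (1), and FA replicate 2 was the only one above 0 for miR-425-3p and miR-34c-3p (ratio 1 for both). No difference between the response of KO females and another group was past the FDR, and for no named miRNA were the mice of KO females and of another group wholly separated in opposite directions.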

How the results depend on the processing

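The 24 miRNAs with the lowest p kept their direction in all 359 values under other settings (pseudocounts of 0.1 and 10, a filter on low values, median-ratio rescaling, no trend, a replicate block, and mice left out), and 3 of these values passed the FDR. limma called 0 miRNAs under all of these but 2 settings. With the replicate number as a block it called 2, miR-2137 (adjusted p = 0.000987) and miR-486b-5p (adjusted p = 0.0102), but mice of the same number did not deviate together (correlations of -0.13 to 0.12). These few correlations cannot settle whether the numbers mark a pairing. With a mouse left out limma called 0 to 1 in the main comparison (miR-486b-5p without O3 replicate 4), 0 to 1 against SP-A2 females and 0 to 1 in the strand balance, while the counts against KO males and co-ex females were 0 throughout. Unadjusted p below 0.05 were found for 10 to 26 miRNAs with a mouse left out, the fewest without O3 replicate 1. The count without overlap was 10 to 20 higher and 3 to 9 lower with a mouse left out, where fewer mice overlap less, and 18 and 16 without FA replicates 3 and 4, an alternative chosen after seeing the data.

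The log2 change crossed 0 as follows, and the cause was not tested. With a mouse left out it ranged from -0.16 to 0.11 for let-7a-5p, -0.11 to 0.27 for miR-30d-5p, -0.14 to 0.32 for miR-125a-5p, -0.40 to 0.61 for let-7b-5p, -0.11 to 0.85 for let-7c-5p, -0.10 to 0.63 for let-7f-5p, -0.0575 to 0.27 for let-7d-5p and -0.70 to 0.78 for miR-21a-5p. After rescaling it was -0.0649 for miR-30d-5p, -0.0496 for miR-125a-5p, -0.0557 for let-7b-5p and -0.0569 for let-7d-5p. Without FA replicates 3 and 4 it was 0.0921 for let-7a-5p, -0.16 for miR-30d-5p, 0.17 for miR-423-5p and -0.80 for miR-21a-5p. The changes of 2.79 of miR-223-5p and -2.51 of miR-486b-3p, both of low value, were not kept without these 2 mice (-0.0238 and 0.0506). The planned count models, edgeR and DESeq2, were not run because whole reads could not be established. The limits are the 4 mice per exposure, the 2 FA mice with many zeros, values at 0 that set the size of the largest changes, and a table that lists only miRNAs above 0 in 4 mice. A miRNA at 0 in most mice of an exposure was therefore listed only through the mice of the other exposure.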

Other observations

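The remaining miRNAs without overlap, named because there were only 2, were miR-30c-2-3p and miR-1839-5p, both higher after O3. miR-30c-2-3p was at 7.38, 28.8, 0 and 42.0 after FA and 124, 79.4, 173 and 270 after O3, with log2 changes of 3.86 in KO females, 1.05 in co-ex females, 0.49 in SP-A2 females and 0.11 in KO males. miR-1839-5p was at 266, 278, 67.6 and 89.7 after FA and 1870, 317, 381 and 394 after O3, with O3 replicate 1 far above the rest (log2 change 1.90, limma adjusted p = 0.628).

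Of the 199 seeds among the miRNAs with a sequence, 26 were shared by at least 2 miRNAs. The largest was that of let-7, with 11 miRNAs of which 9 were higher after O3 and 2 lower, at a median log2 change of 0.33. Of all miRNAs, 64.1% were higher. Without O3 replicate 1, 5 of the 11 were higher (median -0.058), and after median-ratio rescaling 6 were. The median was 0.22 without FA replicates 3 and 4. The seed of miR-181 was held by 4 (median 0.77), that of miR-200b by 3 (median 1.03) and that of miR-29 by 3 (median 0.23). Without FA replicates 3 and 4 their medians were 0.36, 0.16 and -1.46. These are descriptions with no test.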
